A study of Mus musculus with 8 samples.

Results

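The genes described here are 87 transcripts that were strongly lower after Klf6 silencing in oligodendrocyte progenitors (OLP) and had no row in the table for immature oligodendrocytes (iOL), out of 275 rows listed as altered in OLP. They were selected on their measured values. A row was taken when log2 of (siKlf6 FPKM + 1) over (NT FPKM + 1) was -0.8 or lower in the OLP table and when its gene name was absent from the iOL table. Of the 275 rows, 216 were lower and 59 higher in Klf6-silenced OLP, and 123 (44.7%) reached the limit of -0.8. From these 123 rows, 24 also listed in iOL, 11 named in the selection rule as left out, among them the gp130 pathway genes Socs3 and Il6st, and 1 microRNA row were removed. Of the 87 that remained, 86 name a single gene and 1 covers the overlapping pair Insl3 and Jak3. In iOL, 9 of 112 listed rows (8.04%) reached the same limit. None of the 87 is among the 112, since the rule required it. A gene that is not listed in iOL may have been unaltered, too weakly expressed or short of the authors' threshold, and these cannot be told apart. Absence from the table does not show that the authors made no call either, since the study itself names Kpna1, one of the 87, as regulated at both stages. No iOL value for any of the 87 is in the table analysed here, and a smaller effect in iOL than in OLP is not shown.

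RNA was sequenced from 8 cultures of primary C57BL/6 mouse cells, 2 in each of 4 groups. OLP were purified from the cerebral cortex of pups at postnatal day 6 or 7 by depletion of microglia and binding to antibody against PDGFRa, and were grown with PDGF-AA and bFGF. They were nucleofected, that is electroporated, with an siRNA that targets Klf6 (siKlf6) or a non-targeting one (NT). They were harvested untreated after attachment (OLP) or after a further 18 h in 40 ng/ml of the thyroid hormone T3 (iOL). All 4 groups thus received an siRNA, no culture was left without nucleofection, and silencing of Klf6 by siRNA is partial. The iOL were harvested later after nucleofection than the OLP, and the methods describe T3 as given in a differentiation medium. Stage, T3, medium and time since nucleofection therefore cannot be told apart between OLP and iOL. The extent of Klf6 silencing may also differ between them, since it could be read for OLP alone. The deposited tables give a single FPKM per condition (fragments mapped to a transcript, divided by its length and by the size of the library), pooled over both cultures. There is no spread between cultures, no test of any value given here, and the sequencing depth is unknown. Each statement that a gene fell means that the authors' CuffDiff comparison listed it as lower. In pooled RNA of a culture, fewer cells of a type and less RNA per cell cannot be told apart.

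Klf6 encodes a zinc finger transcriptional activator that is itself an immediate-early gene. Immediate-early genes are transcribed within minutes of a growth factor, cytokine or injury signal without new protein synthesis, and many encode transcription factors such as Fos and Jun, or inhibitors that switch the same signal off again. Their messenger RNAs are often short-lived, because AU-rich elements in the 3′ UTR recruit decay factors such as the Zfp36 protein. Signal-inducible genes are also commonly compact, with few exons. In progenitors of the oligodendrocyte lineage these signals arrive through PDGF and FGF receptors and through cytokine receptors of the gp130 family, which activate STAT transcription factors.

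Klf6 was checked first. It was at 38.6 FPKM in NT and 20.0 FPKM in siKlf6 OLP, so that 51.8% of the control value remained. For iOL no such check could be made, because the authors' listing at that stage has no row for the target gene. How far the siRNA lowered its target in iOL is unknown, and equal silencing at the OLP and iOL stages was not tested. The siRNA that the methods name as the primary one has its match in the coding sequence. The 7 letters opposite bases 2 to 8 of the guide strand, TACACGA, the complement of its seed, were found 1 time in the Klf6 transcript, at position 886, inside the coding sequence (positions 151 to 1107). The stretch is shown with the seed complement in capitals, because the same letters occur in some of the 87 genes. It lies at chr13:5864534-5864563 on the plus strand of NCBIM37, the Ensembl name of the mm9 build.
Klf6: gcaggaaagttTACACGAaaagctcccact

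The fall of the 87 genes had a median of -1.09 on the log2(FPKM + 1) scale. The range ran from -2.48 to -0.80. Over all 275 rows listed in OLP the median was -0.76, and over the 216 lower rows it was -0.84. These differences follow from the selection limit and are given only as a description. Control levels of the 87 genes ran from 0.946 to 161 FPKM with a median of 11.5, and silenced levels from 0.0288 to 69.3 FPKM with a median of 4.06. The siKlf6 value was at a median of 36.3% of the NT value, between 2.1% and 56.9%. In 10 genes the log2 value was -2 or lower and in 48 it was -1 or lower. The module spans weak and strong transcripts, with 13 genes under 2 FPKM in NT and 12 at 50 FPKM or more. In siKlf6 OLP 21 genes were under 1 FPKM. For these weak genes the added 1 FPKM compresses the log2 value, and the ratio of the 2 values rests on very few fragments.

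**Figure D1:**
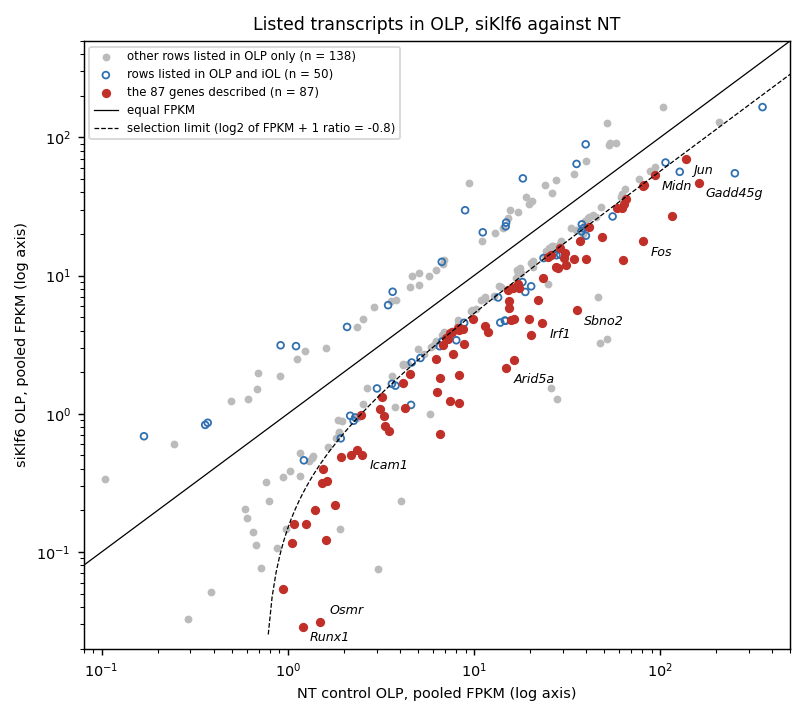
Pooled FPKM of every row listed in OLP, NT on the horizontal and siKlf6 on the vertical axis, both logarithmic, with the solid line at equal values and the dashed line at the selection limit. The 87 genes (red) all lie at or below the limit by construction, between 0.946 and 161 FPKM in NT, blue circles are rows also listed in iOL, 24 of which reach the limit, and grey points below the dashed line are rows that the rule left out by name or as a microRNA.

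At the limit itself the choice is arbitrary. Just inside stood Adamts8, a secreted metalloprotease (2.48 FPKM in NT, 0.980 in siKlf6, log2 -0.81), Midn, a nuclear and nucleolar protein (93.3 and 53.1 FPKM, -0.80), and Syt4, a synaptotagmin (7.40 and 3.82 FPKM, -0.80). Just outside stood Rnf122, a RING finger protein (26.7 and 15.0 FPKM, -0.79), Hlx, a homeobox factor (2.34 and 0.929 FPKM, -0.79), and Tnip2, an inhibitor of NF-kappa B signaling (5.39 and 2.69 FPKM, -0.79). Nothing in these values separates the members from their nearest neighbours.

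**Figure D2:**
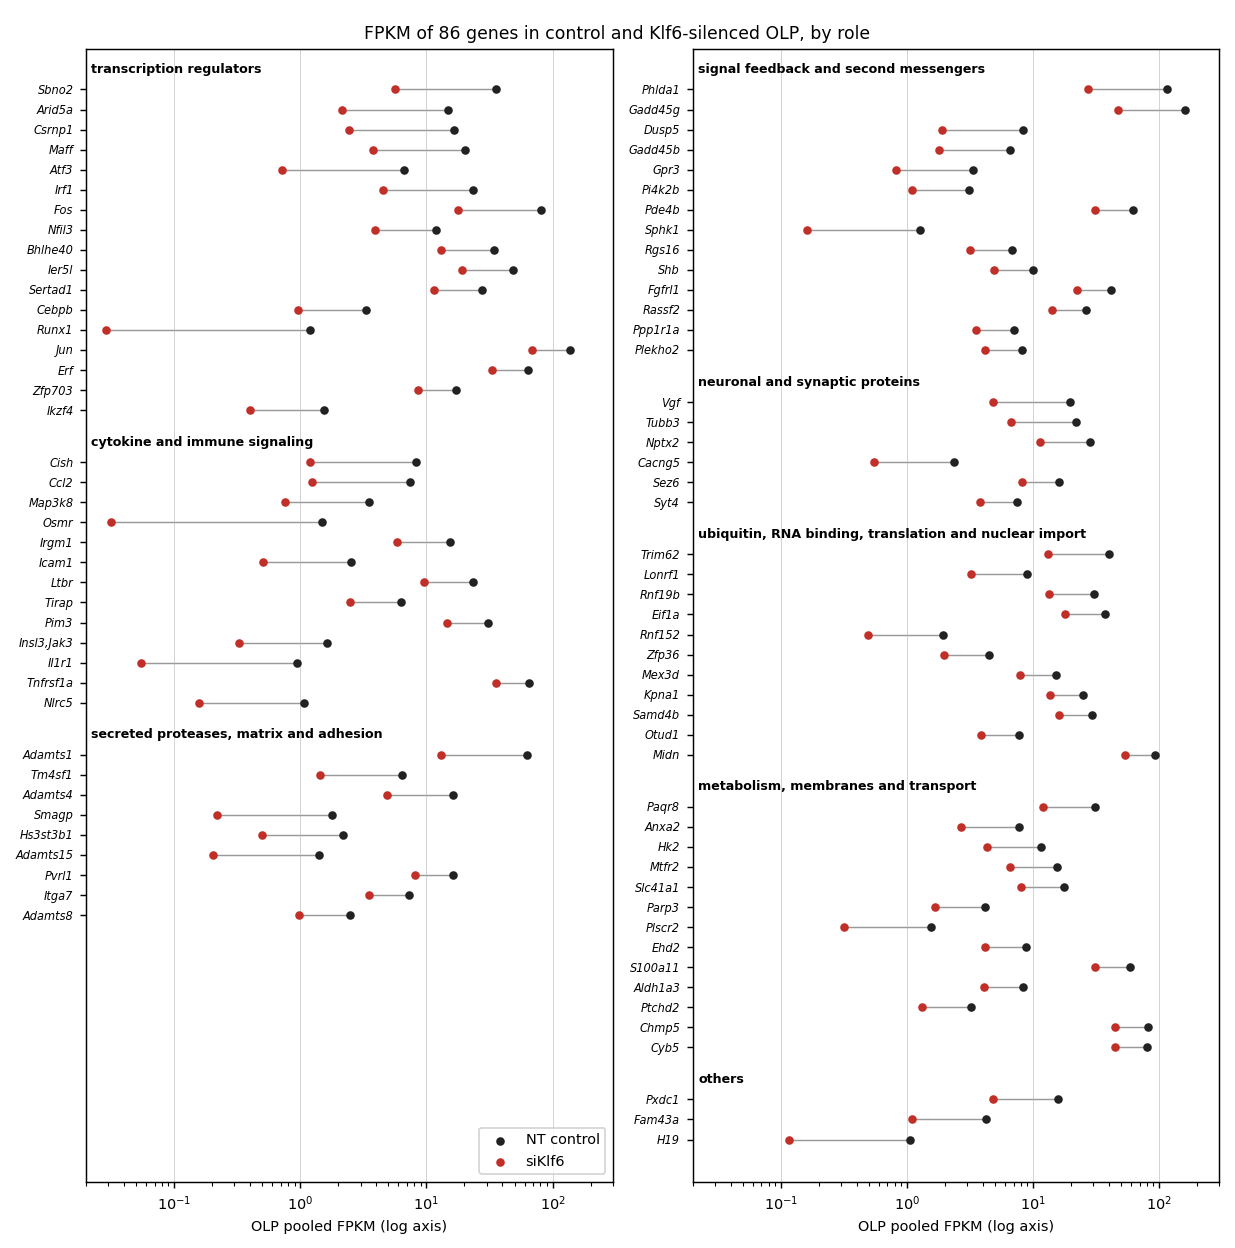
Pooled FPKM (log axis) of 86 of the 87 genes in NT (black) and siKlf6 (red) OLP, grouped by role and ordered within each group by the log2 value, 1 point per condition and no error bar because the values are pooled over cultures. On the log axis the gap is the ratio of both values, and it is widest for Osmr and Runx1, at 2.1% and 2.39% of the NT value.

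Transcription regulators formed the largest role group, with 17 of the 87 genes, and had a median log2 value of -1.32. They also held 7 of the 10 genes at -2 or lower. Sbno2, a corepressor induced by interleukin 10, was at 35.8 FPKM in NT and 5.60 FPKM in siKlf6 OLP (log2 -2.48). It had the lowest log2 value of the 87. Arid5a, an AT-rich interaction domain protein that also binds and stabilizes messenger RNAs, was at 14.9 and 2.13 FPKM (-2.34). Csrnp1, a serum-inducible nuclear protein, was at 16.5 and 2.45 FPKM (-2.34). In each of these 3 genes the silenced value was between 14.3% and 15.6% of the control value.

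Members of the bZIP family, which bind DNA as dimers, had log2 values between -2.16 and -0.97. Maff, a small Maf protein that lacks an activation domain, was at 20.2 FPKM in NT and 3.74 in siKlf6 (-2.16). Atf3, a stress-inducible factor, was at 6.58 and 0.709 FPKM (-2.15). Fos, a component of the dimer AP-1, was at 80.8 and 17.7 FPKM (-2.13), whereas its partner Jun was at 137 and 69.3 FPKM (-0.97). Jun thus kept 50.7% of its control level and Fos 21.9%. Nfil3, a repressor (11.9 and 3.93 FPKM, -1.38), and Cebpb, an effector of interleukin 6 signaling (3.29 and 0.966 FPKM, -1.13), lay between them.

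Irf1, the first interferon regulatory factor described, was at 23.3 FPKM in NT and 4.50 in siKlf6 (-2.14). Bhlhe40, a repressor coupled to the circadian clock, was at 34.3 and 13.1 FPKM (-1.32). Values of similar size were found for Ier5l, an immediate-early response protein, at 48.6 and 19.1 FPKM (-1.31), and for Sertad1, a cofactor of cyclin-dependent kinase and E2F, at 27.6 and 11.6 FPKM (-1.19). Runx1, a Runt domain factor best known from blood cells, was at the bottom of the measured range with 1.20 and 0.0288 FPKM (-1.10). Ikzf4, an Ikaros family zinc finger protein, was weak as well (1.55 and 0.398 FPKM, -0.87). Erf, an ETS domain repressor controlled by Erk, was strongly expressed and lost less (63.7 and 33.1 FPKM, -0.93), as did the zinc finger protein Zfp703 (17.1 and 8.64 FPKM, -0.91).

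Genes of cytokine and immune signaling numbered 13 and had a median log2 value of -1.21. Among receptors, Ltbr, the lymphotoxin beta receptor, was at 23.4 FPKM in NT and 9.56 in siKlf6 (-1.21), and Tnfrsf1a, the type 1 receptor of tumor necrosis factor, at 65.7 and 35.5 FPKM (-0.87). These receptors were expressed well above the other ones. Osmr, which pairs with gp130 to bind oncostatin M, was at 1.49 and 0.0313 FPKM (-1.27), and Il1r1, the signaling receptor of interleukin 1, at 0.946 and 0.0544 FPKM (-0.88). Osmr had the smallest remaining share of the 87 genes, 2.1% of its control value. Control levels this low mean that few fragments stand behind either number.

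Ccl2, a chemokine that attracts monocytes, was at 7.41 FPKM in NT and 1.23 in siKlf6 (-1.92), and Icam1, an adhesion molecule for leukocytes, at 2.52 and 0.504 FPKM (-1.23). Intracellular members included Cish, which is induced by STAT factors and inhibits cytokine receptors (8.29 and 1.19 FPKM, -2.08). Tirap, an adaptor of Toll-like receptors, was at 6.26 and 2.49 FPKM (-1.06), and the kinase Map3k8, which acts upstream of Erk in immune cells, at 3.49 and 0.753 FPKM (-1.36). Irgm1, a GTPase induced by interferon, was at 15.3 and 5.82 FPKM (-1.26), and the serine/threonine kinase Pim3 at 30.7 and 14.6 FPKM (-1.02). Nlrc5, an activator of MHC class I genes, was weak (1.07 and 0.159 FPKM, -0.84). The row that covers Insl3 and Jak3, a peptide hormone and a cytokine receptor kinase, stood at 1.63 and 0.326 FPKM (-0.99), and how much each of the overlapping genes contributes is not known.

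Secreted proteases, matrix and adhesion genes numbered 10, with a median log2 value of -1.15, and 4 of them encode ADAMTS metalloproteases, which cleave matrix proteoglycans. Adamts1 was by far the most abundant, at 63.1 FPKM in NT and 13.04 in siKlf6 (-2.19). Adamts4, an aggrecanase, was at 16.4 and 4.85 FPKM (-1.57). Adamts15 (1.39 and 0.202 FPKM, -0.99) and Adamts8 were weak. The control level of Adamts1 was thus above that of the other ADAMTS members on the FPKM scale, which is per length. Adamts15 and Adamts8 are neighbours on chromosome 9, with 20109 bp between them, and whether their falls are linked was not tested.

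Tm4sf1, a tetraspan membrane protein, was at 6.35 FPKM in NT and 1.43 in siKlf6 (-1.60). Pvrl1, the adhesion molecule nectin 1, was at 16.3 and 8.13 FPKM (-0.92), and the laminin receptor subunit Itga7 at 7.28 and 3.49 FPKM (-0.88). Smagp, a small membrane glycoprotein (1.80 and 0.218 FPKM, -1.20), and Hs3st3b1, a heparan sulfate sulfotransferase (2.19 and 0.499 FPKM, -1.09), were weak. Of the 10 genes, 5 were under 1 FPKM in siKlf6 OLP.

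Signal feedback and second messenger genes numbered 14, with a median log2 value of -0.97, and included the highest control level of the 87. Gadd45g, a growth arrest and DNA damage protein that binds stress kinases upstream of p38 and Jnk, was at 161 FPKM in NT and 47.0 in siKlf6 (-1.75). Its paralog Gadd45b was far weaker, at 6.57 and 1.80 FPKM (-1.43). The silenced values were 29.3% and 27.4% of the control values in these paralogs. Phlda1, a pleckstrin homology-like protein, was at 115 and 27.0 FPKM (-2.05). Dusp5, a nuclear phosphatase of Erk, was at 8.29 and 1.91 FPKM (-1.68).

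Other members of the group act on G proteins, lipids and cyclic AMP. Gpr3, a receptor with constitutive activity toward adenylate cyclase, was at 3.32 FPKM in NT and 0.819 in siKlf6 (-1.25), Pde4b, which degrades cyclic AMP, at 62.1 and 31.1 FPKM (-0.98), and Rgs16, which shortens G protein signals, at 6.82 and 3.17 FPKM (-0.91). Sphk1, which makes sphingosine 1-phosphate, was at 1.26 and 0.160 FPKM (-0.96), and the lipid kinase Pi4k2b at 3.13 and 1.09 FPKM (-0.98). Fgfrl1, an FGF receptor relative without kinase domain, was at 41.5 and 22.5 FPKM (-0.86). The adaptor Shb, the Ras association protein Rassf2, the phosphatase inhibitor Ppp1r1a and Plekho2 had log2 values between -0.90 and -0.82.

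Neuronal and synaptic genes numbered 6, with a median log2 value of -1.17. Vgf, a secreted precursor of neuropeptides that responds to nerve growth factor, was at 19.7 FPKM in NT and 4.81 in siKlf6 (-1.83). Tubb3, the beta tubulin commonly used as a neuronal marker, was at 22.0 and 6.62 FPKM (-1.59). Nptx2, a pentraxin that gathers glutamate receptors and is induced by activity, was at 28.1 and 11.4 FPKM (-1.23). Cacng5, an auxiliary subunit of glutamate receptors (2.34 and 0.545 FPKM, -1.11), Sez6, a membrane protein of dendrites (16.0 and 8.12 FPKM, -0.90), and Syt4 completed the group.

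Whether other cell types moved with the 87 genes was examined with marker lists. Of 10 neuronal markers 2 were listed in OLP, Tubb3 and the neurofilament Nefl, with summed levels of 26.6 FPKM in NT and 7.78 in siKlf6. Of 12 microglial markers 2 were listed as lower (Cd14 and Irf8, summed 3.72 and 0.813 FPKM), of 10 astrocyte markers 1 (Gfap, 3.06 and 0.0752 FPKM), and of 6 endothelial markers 1 (Kdr, 0.764 and 0.323 FPKM). None of the 7 pericyte or fibroblast markers was listed. Over all protein-coding genes 208 of 22238 (0.935%) were listed as lower in OLP. The marker lists were chosen with earlier results of these data known, so these counts are a description only. The other markers of these lists, including Cx3cr1, Csf1r, Aqp4, Rbfox3 and Pecam1, were not listed, so neither their levels nor whether they were at 0 is known. The part that a shift in the share of neurons, microglia or astrocytes has in the falls was not tested. Of 6 OLP markers none was listed in OLP, so the labelled cell type could not be checked by level. Of 8 markers of maturing oligodendrocytes Cldn11 was listed as lower in OLP, at 18.2 and 8.97 FPKM. In iOL the OLP marker Sox10 was listed as lower, at 42.1 FPKM in NT and 25.9 in siKlf6. Cldn11 (17.7 and 9.83 FPKM) and Nefl (3.85 and 1.88 FPKM) were listed as lower in iOL too. Without the 6 neuronal and synaptic genes 81 genes remain.

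Genes of the ubiquitin system, RNA binding, translation and nuclear import numbered 11, had a median log2 value of -0.90 and kept more of their control level than the groups above, with a median of 48.3%. Trim62, a ubiquitin ligase of the tripartite motif family, was at 39.8 FPKM in NT and 13.2 in siKlf6 (-1.52). The ligases Lonrf1 (8.87 and 3.22 FPKM, -1.23), Rnf19b (30.3 and 13.4 FPKM, -1.12) and Rnf152 (1.94 and 0.488 FPKM, -0.98) and the deubiquitinase Otud1 (7.66 and 3.88 FPKM, -0.83) were lower too. Zfp36, the protein that binds AU-rich elements and directs the decay of messenger RNAs, was at 4.50 and 1.95 FPKM (-0.90). Mex3d, another RNA-binding protein, was at 15.3 and 7.82 FPKM (-0.88), and Samd4b, a Smaug homolog, at 29.1 and 16.0 FPKM (-0.83). Kpna1, an importin alpha that carries proteins with a nuclear localization signal into the nucleus, was at 25.1 and 13.6 FPKM (-0.84) in OLP, and it is the member for which the study names regulation in iOL too. The translation initiation factor Eif1a was at 37.1 and 17.9 FPKM (-1.01).

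Genes of metabolism, membranes and transport numbered 13 and had a median log2 value of -0.95. Paqr8, a membrane progestin receptor, was at 31.1 FPKM in NT and 11.96 in siKlf6 (-1.31). Hk2, the inducible hexokinase of the first step of glycolysis, was at 11.5 and 4.31 FPKM (-1.23), and Aldh1a3, which makes retinoic acid, at 8.32 and 4.06 FPKM (-0.88). Anxa2, a calcium-dependent phospholipid-binding protein, was at 7.74 and 2.69 FPKM (-1.24), and S100a11, a calcium-binding protein, at 58.3 and 31.1 FPKM (-0.89). Chmp5, a subunit of the ESCRT membrane-remodelling machinery (81.9 and 45.0 FPKM, -0.85), and Cyb5, the electron carrier cytochrome b5 (80.4 and 44.5 FPKM, -0.84), combined high levels with small falls. The other 6 were the mitochondrial fission regulator Mtfr2, the magnesium transporter Slc41a1, Parp3, Plscr2, Ehd2 and Ptchd2, with log2 values between -1.13 and -0.85. Outside these groups stood Pxdc1 (15.8 and 4.80 FPKM, -1.53), Fam43a (4.26 and 1.10 FPKM, -1.33) and the long non-coding RNA H19 (1.06 and 0.116 FPKM, -0.88).

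The role groups above were made from the 87 genes themselves. For a wider view, 8 lists of genes written from general knowledge, with earlier results of these data known, were counted against both tables. The lists hold 274 distinct genes, of which 88 (32.1%) were listed as lower in OLP, 6 as higher, and 50 were among the 87. By comparison, 208 of 22238 protein-coding genes of the annotation (0.935%) were listed as lower in OLP. The lists are not independent of these data, so the excess is a description of how they were built as much as of the cells. Of the 274 genes 18 were listed in iOL, where 104 of all 22238 coding genes (0.468%) were listed in either direction. At that share most single lists would have no gene in the iOL table, so the absences from iOL given next are near the background and are not a result about the lists.

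Of 21 inducible bZIP and AP-1 factors 8 were listed as lower in OLP and none as higher, and none was listed in iOL. Of the 8, 6 are among the 87, and the others, Junb and Fosl2, were left out by name. Of 39 other inducible transcription regulators 14 were lower and 1, Bcl6, was higher in OLP, while in iOL Egr1 alone was listed, as higher. Of 58 genes of cytokine, interferon and TNF signaling 19 were lower in OLP, 11 of them among the 87, and none was listed in iOL. Of 38 feedback regulators of MAP kinase and stress signaling 10 were lower and 1, Dusp6, was higher in OLP, with none listed in iOL. Among 40 genes of extracellular proteases, matrix and adhesion the counts in OLP were 10 lower and 2 higher, and in iOL 3 were higher.

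In the neuronal list 14 of 33 genes were lower and 2 higher in OLP, and 6 were lower and 2 higher in iOL. Of the 14, 6 are among the 87. Of 22 genes of the ubiquitin system 11 were lower in OLP and 3 in iOL, and of 26 annexins, S100 and actin-binding proteins 5 were lower in OLP, while in iOL 2 were lower and 1 was higher. The difference between stages was not tested, since it could only be tested with values per culture.

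Gene structure was examined as a property that the selection did not use. Of the 87, 84 single-gene rows are protein-coding in the annotation (GENCODE on NCBIM37). Their median length from gene start to gene end was 13122 bp (95% interval 10217 to 20591). The 23 genes that reached the limit in OLP and were also listed in iOL (the 24 counted above without 1 row that also names a microRNA) had a median of 21431 bp (9366 to 72543), the 76 coding genes of the remaining rows lower in OLP only 36977 bp (19422 to 45260), and the 39 coding genes higher in OLP only 36428 bp (13772 to 87949). All 22238 protein-coding genes had a median of 15512 bp. The median of the 87 genes was thus below those of the other OLP-only rows. Their interval just overlaps that of the lower rows, overlaps that of the higher rows more widely, and holds the median of all coding genes. Long genes were few among them, with 3 of 84 (3.57%) at 100 kb or more, Pde4b, Runx1 and Shb, against 10.8% of all coding genes and 30.8% of the genes higher in OLP only. Short genes were not more frequent than in the annotation, with 16 of 84 (19%) at 5 kb or less, against 26% of all coding genes. Exon number did not stand out. The median was 6 exons, as over all coding genes, and 22 genes (26.2%) had 3 exons or fewer, against 28.2%.

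**Figure D3:**
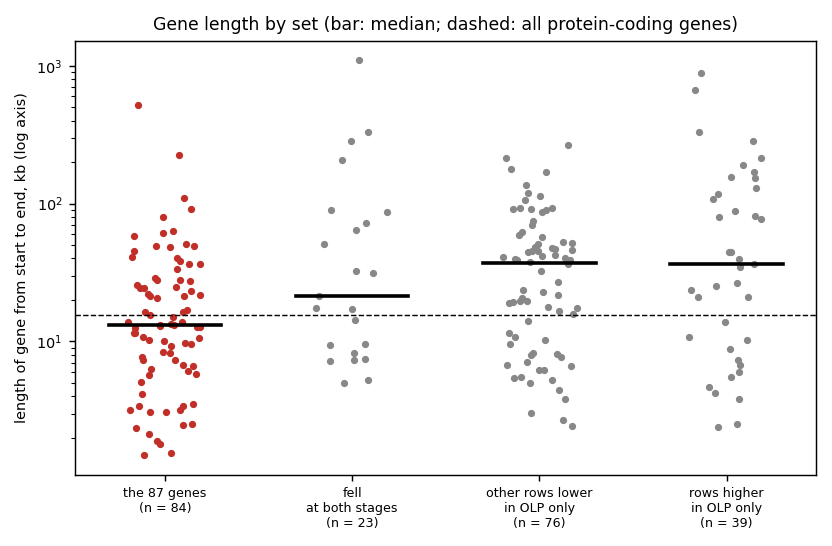
Length from gene start to gene end in kb (log axis) of each protein-coding gene, by set, with the bar at the median and the dashed line at the median of all protein-coding genes. The 87 genes have a median of 13122 bp, the other lower and the higher OLP-only rows 36977 and 36428 bp.

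Some of the 87 genes are close neighbours. Of all pairs, 15 lay within 1000000 bp of each other. The same count was not made for other listed rows or for all coding genes, so whether 15 is many is not known. Besides the ADAMTS pair the 15 include Zfp36 and Samd4b on chromosome 7 (20293 bp apart), Ltbr and Tnfrsf1a on chromosome 6 (35476 bp), and Sbno2 and Midn on chromosome 10 (45573 bp). On chromosome 10 a stretch under 1000000 bp long holds Sbno2, Midn, Mex3d and Gadd45b. Neighbouring genes are not independent observations.

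AU-rich elements in the 3′ UTR were searched as the heptamer TATTTAT on the strand of the messenger RNA. Short stretches around the heptamer, in capitals, are shown from 4 of the genes with large or well-known regulation, all on NCBIM37. They lie at chr12:86818053-86818082 (plus strand) in Fos, chr7:29161969-29161998 (minus) in Zfp36, chr9:107203708-107203737 (plus) in Cish and chr9:20832758-20832787 (plus) in Icam1.
Fos: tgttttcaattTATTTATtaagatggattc
Zfp36: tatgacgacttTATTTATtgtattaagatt
Cish: tatacagtattTATTTATttattctccttg
Icam1: tcttcttgatgTATTTATtaatttagagtt

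Of the 83 genes with an annotated 3′ UTR 41 (49.4%, 95% Wilson interval 38.9 to 59.9) held the heptamer, against 4753 of 19898 coding genes (23.9%). A pair or more of the heptamers stood in 18 (21.7%), against 8.07% of all. Matches that overlap or adjoin in a single run were counted separately, such as the 6 of Gpr3 and the 3 of Cish. The counts of pairs and the counts per kb below thus include repeats within a run, in every set. The share in the other rows lower in OLP only was near that of the 87 genes, 36 of 76 (47.4%), and among the rows higher in OLP only it was 16 of 37 (43.2%). It was smallest among the genes that fell at both stages, 4 of 23 (17.4%). Length bears on these shares, since the median 3′ UTR was 1217 bases in the 87 genes, 1900 in the other lower rows, 1877 in the higher rows and 892 over all coding genes. Per kb of 3′ UTR the 87 genes held 0.51 heptamers, the other lower rows 0.361, the higher rows 0.252, the genes that fell at both stages 0.199 and all coding genes 0.283. The per-length density was thus highest in the 87 genes, though the 3′ UTR of the 87 genes was not richer in A and T, with 47% G and C against 44.3% over all coding genes. The annotation includes genes that OLP do not express, and the share among expressed genes is not known.

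The seed complement shown for Klf6 above, TACACGA, was searched in the 3′ UTR because a guide strand can lower unintended transcripts through such matches. It was present in 5 of 83 genes (6.02%), Hk2, Chmp5, Kpna1, Midn and Syt4. The stretches of 4 of them are shown with the match in capitals. They lie on NCBIM37 at chr6:82675971-82676000 (minus strand), chr4:40912159-40912188 (plus), chr16:36035685-36035714 (plus) and chr10:79621061-79621090 (plus).
Hk2: gtctcgtgtttTACACGAgatgcacgctgt
Chmp5: gagcaagtcatTACACGAtctactgttgga
Kpna1: agcagccaattTACACGAcctgatttactt
Midn: gagaaaaaactTACACGAgcaccgaatttc

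Over all coding genes 267 of 19898 (1.34%) held these letters. The share was 5 of 23 (21.7%) in the genes that fell at both stages, 9 of 76 (11.8%) in the other rows lower in OLP only and 0 of 37 in the rows higher in OLP only. Per kb of 3′ UTR the 87 genes held 0.037 matches, the genes that fell at both stages 0.142, the other lower rows 0.0591 and all coding genes 0.0102. That the primary siRNA was the one used for these libraries is taken from the methods and not from the labels, and the part of such matches in the falls was not tested. The methods also name additional siRNAs against Klf6, used to assess specificity. For Kpna1 the paper further reports Klf6 binding at its promoter. It also reports, from confocal imaging, less of the protein in oligodendrocyte lineage cells of mouse embryos with Klf6 inactivated by Cre. That is a protein measure in embryos, whereas the values here are RNA of cultured cells. The part of the seed match in the fall of Kpna1 was not tested.

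**Figure D4:**
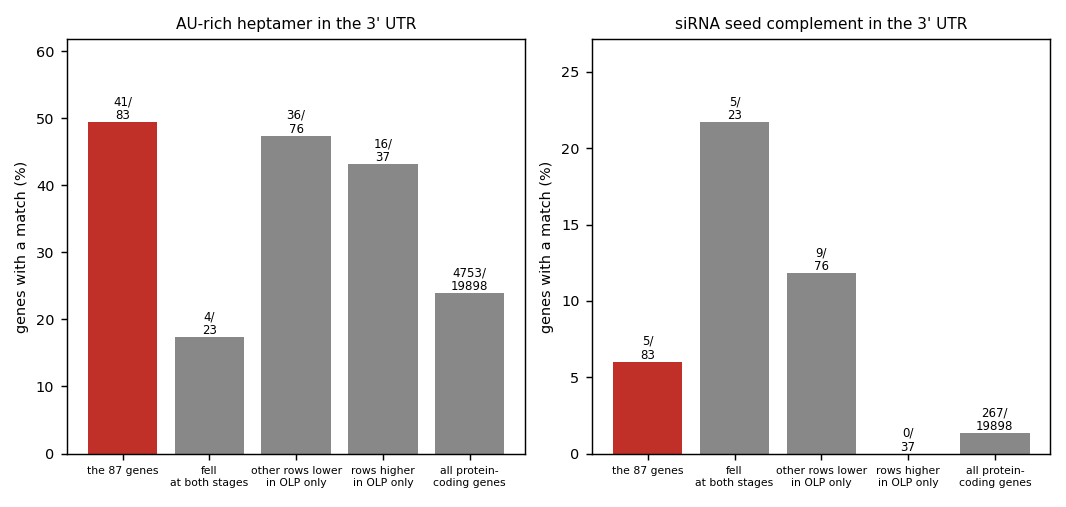
Share of protein-coding genes (%) whose annotated 3′ UTR holds the AU-rich heptamer TATTTAT (left) or the siRNA seed complement TACACGA (right), by set, with the number of genes with a match over the number with a 3′ UTR on each bar. The 87 genes stand at 49.4% and 6.02%, and all protein-coding genes at 23.9% and 1.34%.

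Promoters were read from RefSeq (GRCm38.p6), from 250 bases before to 50 bases after each annotated start. A gene was counted once, when any of its starts had a match, so each share of promoters is a share of genes. Genes with several starts, such as Sphk1, had more windows to match in, and the number of starts was not compared between sets. Entries were at hand for 59 of the 87 genes (67.8%), fewer than 80%, so a check over the whole list is void and the counts describe those 59 genes. The entries missing include Phlda1, Ccl2, Vgf and Adamts4. The palindrome TTCNNNGAA, the general form of sites bound by STAT factors, is its own reverse complement and was found in 12 of the 59 (20.3%), against 9.55% of all promoters and 8.92% of promoters of coding genes. Before the start alone it was in 8 (13.6%), against 8.13% of all, a smaller difference. Over the whole window it was, in the other sets, in 2 of 19 (10.5%) for genes that fell at both stages, in 4 of 48 (8.33%) for the other rows lower in OLP only and in 3 of 36 (8.33%) for rows higher in OLP only. The narrower form TTCCNGGAA, which the first includes, was in 5 of the 59 (8.47%) and in 1.35% of all promoters, and before the start alone in 2 (3.39%), against 1.09%. Stretches of 5 genes are shown with the palindrome in capitals, since 4 of these genes are among the 10 with the lowest log2 values. They lie on GRCm38.p6 at chr11:53769914-53769943 (plus strand), chr9:107296649-107296678 (plus), chr10:80101192-80101221 (minus), chr15:79347537-79347566 (plus) and chr9:21015888-21015917 (plus).
Irf1: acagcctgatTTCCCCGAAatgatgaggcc
Cish: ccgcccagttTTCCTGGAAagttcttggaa
Sbno2: ccggctctgcTTCCCGGAAtgcctgtgagt
Maff: gcgtgagtaaTTCCGGGAAgctcgccttac
Icam1: ggcgcgaggtTTCCCGGAAagtggccccga

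In these genes the first letter of the palindrome stood 90 bases before the start in Irf1, at the start in Cish, 24 before it in Sbno2, 27 after it in Maff and 42 before it in Icam1. The log2 values of the 5 genes, given above, ran from -2.48 for Sbno2 to -1.23 for Icam1. The other genes with the palindrome were Csrnp1, Paqr8, Mtfr2, Pde4b, Sphk1, Zfp36 and Tnfrsf1a, so that large and small falls are both represented. A match is a run of letters and not a bound site, and no binding was measured.

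Other motifs were searched on both strands in the same windows. The GC box GGGCGG, bound by Klf/Sp factors among others, was in 50 of 59 promoters (84.7%), against 38.2% of all and 49.2% of coding promoters, and on the gene's strand alone in 32 (54.2%), against 25.6% of all. It was however in 16 of 19 (84.2%) of the genes that fell at both stages, in 34 of 48 (70.8%) of the other lower OLP-only rows and in 24 of 36 (66.7%) of the higher ones, and so is frequent throughout the listed genes. The CACCC box, also a Klf site and part of longer GC-rich runs, was in 44 (74.6%), against 59.8% of all promoters, and in 29 of 36 (80.6%) of the higher rows. The AP-1 site TGANTCA was in 8 (13.6%), against 8.97%, and the cAMP response element TGACGTCA in 1, Maff (1.69%, against 2.03%).

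The kappa B site was in 9 promoters (15.3%), against 5.14% of all, but on the gene's strand alone in 3 (5.08%), against 3.16% of all. On both strands this compares with 6 of 48 (12.5%) of the other lower rows and 1 of 36 (2.78%) of the higher rows. The 9 were those of Sbno2, Maff, Irf1, Fos, Tm4sf1, Pxdc1, Pde4b, Sphk1 and Il1r1. The CArG box of serum response factor was in 2, Dusp5 and Zfp36 (3.39%, against 1.81%), and the letters TATAAA of the TATA box were in 10 (16.9%, against 15.7%). For the AP-1, cAMP response and TATA motifs the share in the 59 promoters was within 5 percentage points of the share over all promoters.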

How the data were processed

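RNA of 8 cultures (2 for each of OLP NT, OLP siKlf6, iOL NT and iOL siKlf6) had been sequenced by the authors. Per the labels, base calling used CASAVA 1.8, and the submitters' processing notes name TopHat2, Cuffdiff and the mm9 build. The authors deposited a table for each stage with the rows CuffDiff had called at its false discovery rate, in which expression is an FPKM value pooled over the cultures of a condition. Columns of the authors' own comparison (fold change, test statistic, p and q) were not used. No value per culture was at hand, so no error, depth, interval of a gene's value or test could be computed, and no statistic here treats genes as replicates of a condition.

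The 87 genes were those with log2((siKlf6 + 1)/(NT + 1)) of -0.8 or lower in OLP, with a name absent from the iOL table and outside the names that the selection rule leaves out. The genes, role groups, lists and motifs were chosen with earlier results of these data known, and the role groups after the genes had been seen. Both FPKM values are given for the 10 lowest log2 values, the 5 highest NT levels, up to 6 genes of each list, 3 genes just inside and 3 just outside the limit, and Klf6. Any other of the 87 was named freely. The values of 1 of the 87 are not reported here, but it is counted throughout.

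Gene lengths, exons and 3′ UTRs came from GENCODE on NCBIM37, with the row naming 2 genes left out. Exons are those of the transcript with the longest coding sequence. The 3′ UTR is the longest one annotated for any coding transcript of the gene, which may be another transcript. Promoters came from RefSeq on GRCm38.p6. The kappa B and CArG motifs were searched by their usual degenerate letters. Intervals of median lengths are order-statistic intervals at 95% and those of shares are Wilson intervals, both over genes. No interval is given for the median log2 value, because the selection limit acted on the same values. Python 3.11.15, pandas 2.3.3, numpy 2.4.6, scipy 1.17.1 and matplotlib 3.10.9 were used, and the selection and the searches were tested on simulated data. Alternatives were 0.1 FPKM in place of 1, limits of -1 and -0.6, a minimum of 1 FPKM, other handling of rows naming several genes, shorter motifs, bases before the start alone and the gene's strand alone.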

Additional observations from a re-analysis of the deposited data

How the results depend on the processing

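No paired analysis was possible because both cultures of a condition share 1 pooled value, and for the same reason no culture could be left out in turn. Of 48 recalculations 36 stayed within the spread or within 1.5 times the count and 12 moved. Some of the 36 could not move, such as searches on the gene's strand alone for motifs that are their own reverse complement. The number of genes was 48 at a limit of -1 and 149 at -0.6, against 87, and it was 128 with 0.1 FPKM added and 66 with at least 1 FPKM in both conditions. All 87 are among the 149 and the 128 by construction, since both settings can only add genes. The median log2 value was -1.435 with 0.1 FPKM added, against -1.09, since the smaller constant compresses weak genes less, and -1.088 among genes with at least 1 FPKM. At the limit of -1 the list of proteases, matrix and adhesion held 4 of the genes, the ubiquitin list 3 and the annexin list 1, against 7, 5 and 3, as fewer genes pass. With the row naming 2 genes kept, the median length was 13123 bp. The 6 letters ACACGA of the seed complement were in 22.9% of the genes (6.83% of all coding genes), and the 5 letters ATTTA in 79.5% (61.3%), both shorter and so more frequent everywhere. Chosen after seeing the data, a window of 3′ UTR length from 500 to 3000 bases gave 55% with the heptamer (28.5% of all coding genes) and 6.67% with the seed complement (1.46%). TTCCNGGAA was in 3.39% of promoters when only bases before the start were searched, against 8.47%, so 3 of its 5 genes had it at or after the start. On the gene's strand alone the GC box was in 54.2%, the CACCC box in 55.9% and the kappa B site in 5.08%, and the latter is then near the 3.16% of all promoters. Unknown depth limits the values under 1 FPKM most.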
